A study of Homo sapiens with 6 samples.

Results

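The insulin-like growth factor (IGF) axis was examined in Huh-7 cells, an established human hepatocellular carcinoma line, through 10 genes chosen by symbol among the 20332 genes of the deposited table. These are the ligand IGF2, the receptors IGF1R, INSR and IGF2R, the insulin receptor substrates IRS1 and IRS2, and the binding proteins IGFBP1, IGFBP2, IGFBP3 and IGFBP4. The genes were picked by name, with earlier results of these data known, and no threshold on a measured value was applied. RNA came from 3 samples of Huh-7 cells with stable RAC3 overexpression, made with a lentivirus, and from 3 negative control samples that the labels call WT. RAC3 is a small GTPase. Whether the stable cells were a pool or 1 clone, and what vector the controls carried, is not given in the sources used here. The genotype labels of RAC3 samples 2 and 3 name RAC4 and RAC5, while their titles give RAC3, and they were kept in the RAC3 group.

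IGF2 and insulin signal through the receptor tyrosine kinases IGF1R and INSR, which phosphorylate the docking proteins IRS1 and IRS2 and so recruit phosphoinositide 3-kinase and AKT. IGF2R, also known as the cation-independent mannose 6-phosphate receptor, has no kinase, and it takes up IGF2 for degradation and sorts lysosomal enzymes. The binding proteins hold IGFs outside the cell and control their access to the receptors. In liver cancer, IGF2 is often made again from its fetal promoters, and hepatocytes are the main source of circulating IGFs and of several binding proteins.

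The samples held between 13855762 and 18199888 counts on genes, and 12941 genes passed edgeR's filter on low counts, all 10 members among them. RAC3 itself lay between 31.4 and 35.6 normalized CPM (counts per library brought to 1 scale with edgeR's TMM factors) in the negative controls and at 232.6, 239.6 and 225.4 in RAC3 samples 1, 2 and 3. All 10 hepatocyte markers examined, ALB and AFP among them, exceeded 1 CPM in every sample, with summed levels of 5618 to 5682 CPM in the negative controls and 5142 to 5664 with RAC3. Above 1 CPM in every sample were 3 of 6 stellate cell and fibroblast markers (summed 86.7 to 86.9 CPM against 95.5 to 100.7), 1 of 5 endothelial markers (2.53 to 3.15 CPM against 2.70 to 3.76, with TEK at 0) and 3 of 6 immune markers (43.9 to 51.2 CPM against 40.9 to 42.6). The part of these in the results was not tested. In bulk RNA, fewer cells of a type and less RNA per cell cannot be told apart. The study describes the samples as independent RNA samples, and whether each came from a separate culture is not stated, so p-values measure the spread between these samples, which may be technical.

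Levels of different genes were compared per length, as the FPKM values of the authors (fragments scaled to gene length and library size). IGFBP3 and IGF2 stood far above the other members. In the negative controls IGFBP3 had 397.9 ± 7.11 FPKM and IGF2 had 324.8 ± 12.7 FPKM (SD, n = 3), and both ranked between 166 and 276 among all genes of the table in every sample. Next came IGF2R at 37.2 ± 1.64, IGF1R at 17.3 ± 1.34, IRS2 at 13.2 ± 0.198, INSR at 12.1 ± 0.584 and IRS1 at 7.46 ± 0.385 FPKM (SD, n = 3). The lowest were IGFBP2 at 6.67 ± 1.83, IGFBP4 at 2.19 ± 0.477 and IGFBP1 at 1.81 ± 0.375 FPKM (SD, n = 3). Huh-7 cells thus held much ligand RNA and 1 dominant binding protein: IGFBP3 took between 97.0% and 97.8% of the summed FPKM of IGFBP1 to IGFBP4 in every sample. The order of the 10 means was the same with RAC3 overexpression. Neighbours in this order did not overlap between samples, except IRS1 and IGFBP2 in both groups and IGFBP4 and IGFBP1 in the negative controls, whose ranges did overlap.

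**Figure D1:**
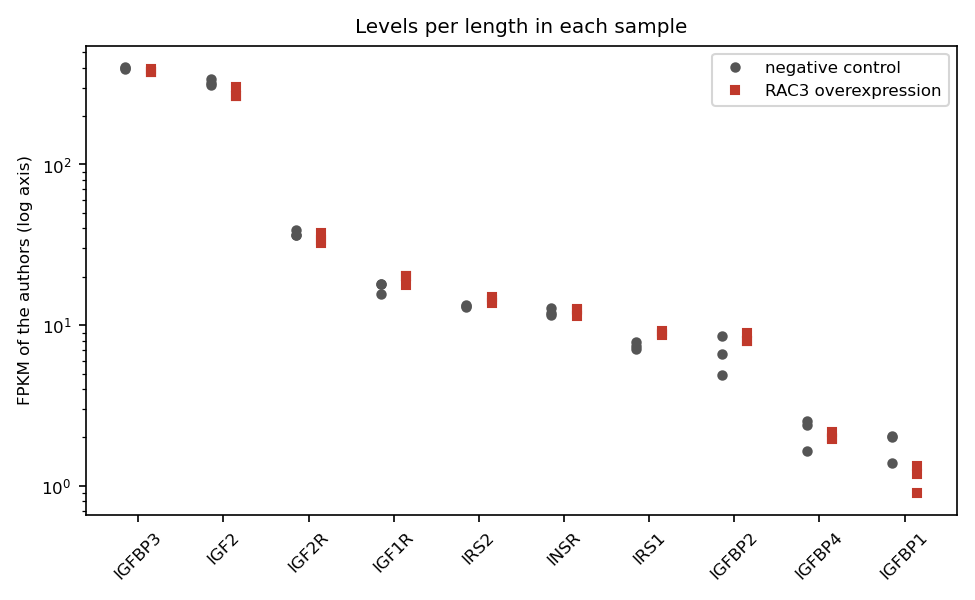
FPKM of the authors (log axis) for the 10 genes, ordered by the mean of the negative controls, with 1 point for each of the 3 negative control samples (circles) and the 3 RAC3 samples (squares). IGFBP3 and IGF2 lie at 266.6 FPKM or more in every sample and IGFBP1 near 1 to 2 FPKM.

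Between RAC3-overexpressing and negative control cells, IGF2, IGF1R, IGF2R and IGFBP3 RNA was lower, IRS1 RNA was higher, and the changes were small: from 7.71% for IGFBP3 to 21.8% for IGF2. With edgeR's quasi-likelihood test and Benjamini-Hochberg adjustment over the 12941 genes, 4 of the 10 members had an adjusted p below 0.05 and were lower, against 15.3% of all genes tested, and 1 was higher, against 13.3%. IGFBP1 was the 1 member past the thresholds that the study stated, a fold change above 1.5 with an unadjusted p below 0.05, which 4.68% of all genes passed. The groups did not overlap in normalized CPM for 6 members, against 42.5% of all genes. The median log2 fold change was -0.12 over the members and 0.00 over all genes tested. Counted over 16 alternative settings of test, filter, scaling and samples, the 5 calls were not equally stable: that of IGF2 was made under all 16, that of IRS1 under 13, and those of IGFBP3, IGF2R and IGF1R under 10, 8 and 6. The 12 hypoxia-induced genes examined outside the axis, a set that low oxygen raises in most cells, moved with the groups as well: 9 of the 11 tested were lower with an adjusted p below 0.05, with summed levels of 1049, 776 and 671 CPM in negative controls 1, 2 and 3 and 559, 546 and 548 CPM in RAC3 samples 1, 2 and 3. Their part in the values below was not tested.

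**Figure D2:**
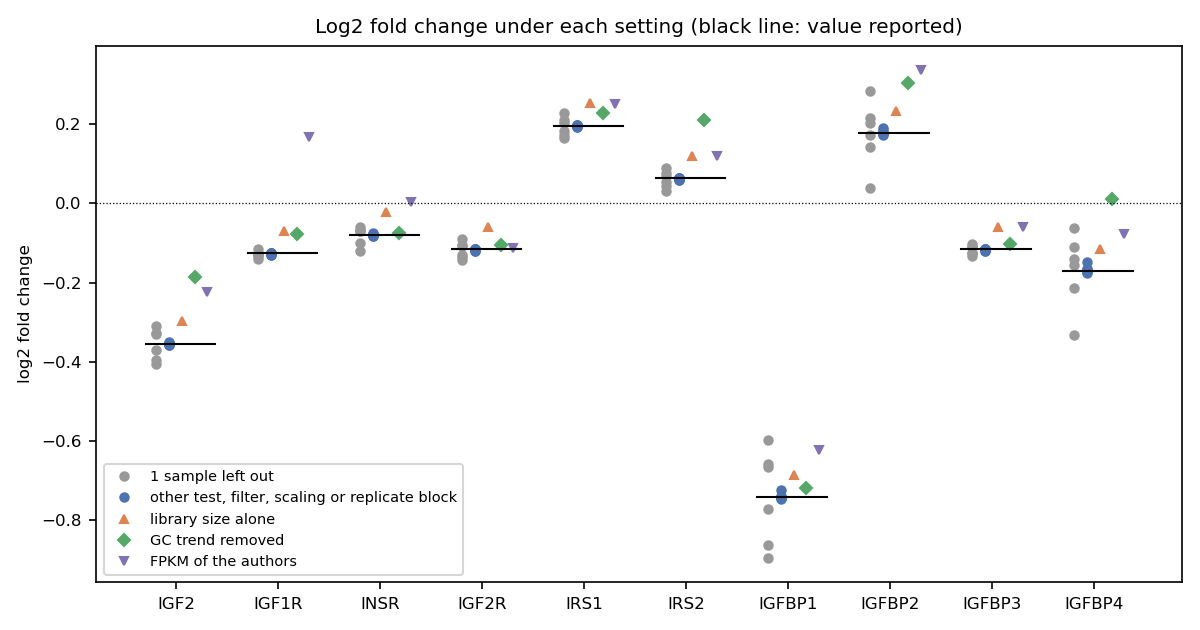
Log2 fold change of each member under every alternative setting, with the reported value as a black line and the dotted line at 0. IGF2 stays between -0.41 and -0.18 and IRS1 between 0.16 and 0.25, while IGF1R, INSR and IGFBP4 each cross 0 under 1 setting.

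**Figure D3:**
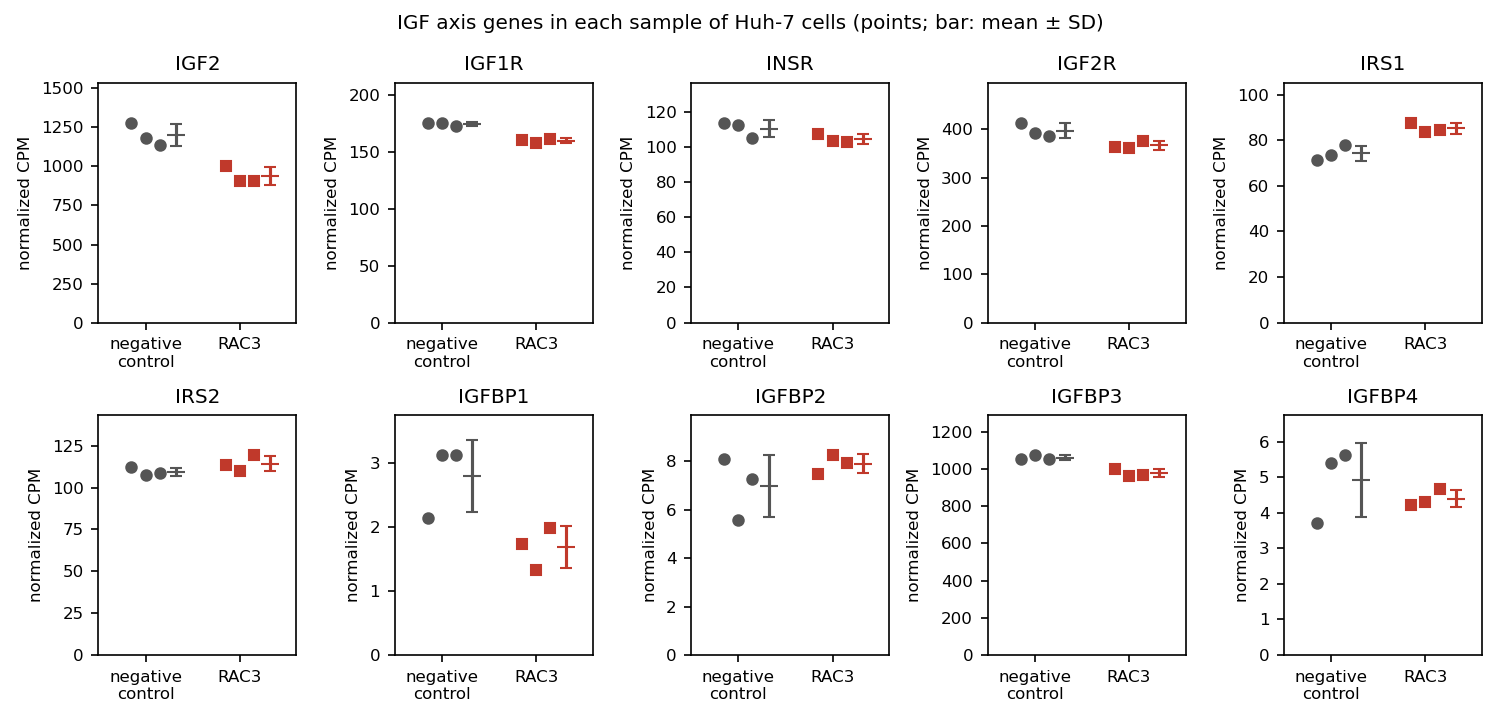
Normalized CPM (axes from 0) of each member in the 3 negative control and 3 RAC3 samples, with the mean ± SD beside the points. IGF2, IGF1R, IGF2R, IGFBP1 and IGFBP3 are lower in every RAC3 sample than in every negative control, IRS1 is higher, and the groups overlap for INSR, IRS2, IGFBP2 and IGFBP4.

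IGF2 (ENSG00000167244, chromosome 11 from 2129112 to 2149603 on GRCh38, minus strand), the fetal growth factor of the axis, had the smallest p-value of the 10 members. Its normalized level was 1282, 1186 and 1140 CPM in negative controls 1, 2 and 3 and 1006, 906 and 910.2 CPM in RAC3 samples 1, 2 and 3. Every RAC3 sample lay below every negative control. IGF2 fell by 21.8%, which is -0.35 as a log2 fold change with a standard error of 0.0469 (edgeR adjusted p = 1.8e-05). Between 12832 and 20450 counts per sample stood behind this value. Removing each library's trend with GC content brought the log2 fold change to -0.18 (edgeR adjusted p = 0.00582), the value nearest to 0 of all settings, and IGF2's longest annotated transcript holds 60.5% G and C. The overlapping read-through gene INS-IGF2 had 0 counts in every sample, a count of 0 allowing up to 0.165 to 0.217 CPM for counting error only. A second gene entry that spans the same bases is also listed, and its counts are not reported here. IGF2-AS runs on the opposite strand, and without strand in the counting its reads and those of IGF2 cannot be told apart.

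IGF1R (ENSG00000140443, chromosome 15 from 98648539 to 98964530), the main signalling receptor for IGF2, was at 176.0, 175.3 and 172.6 CPM in the negative controls and 161.1, 157.6 and 161.3 CPM in the RAC3 samples. The groups were tight and did not overlap. IGF1R fell by 8.36%, a log2 fold change of -0.13 (95% interval -0.22 to -0.03, edgeR adjusted p = 0.0384). The call rested on all 6 samples, since leaving out any 1 of them gave adjusted p-values from 0.0531 to 0.1 in the same edgeR test, at log2 fold changes of -0.14 to -0.12. The call was also lost under scaling to library size alone (-0.07), after GC trend removal (-0.08) and under the replicate block (adjusted p = 0.0909, edgeR), and on the FPKM values of the authors the direction turned, to 0.17 (adjusted p = 0.194, limma). INSR (ENSG00000171105, chromosome 19 from 7112255 to 7294034), the insulin receptor, whose A isoform also binds IGF2, had 113.9, 112.5 and 104.9 CPM in the negative controls and 107.5, 103.1 and 102.7 CPM with RAC3. Negative control 3 lay within the range of the RAC3 samples. The log2 fold change of INSR was -0.08 (95% interval -0.19 to 0.03, edgeR adjusted p = 0.28), an interval that includes the value of IGF1R. Within each library, the log2 ratio of INSR to IGF1R counts averaged -0.66 ± 0.0487 in the negative controls and -0.62 ± 0.0343 with RAC3 (SD, n = 3 each). The difference of 0.05 was within the spread of the samples (exact permutation test, two-sided, p = 0.3, adjusted p = 0.375 over 5 ratios, with 0.10 the smallest p that 3 samples against 3 allow), and with the FPKM values of the authors it had the opposite sign, at -0.16.

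IGF2R (ENSG00000197081, chromosome 6 from 159969099 to 160113507) was the receptor with the most RNA. It had 414.2, 392.9 and 385.3 CPM in the negative controls and 362.8, 360.6 and 376.8 CPM in the RAC3 samples, so that the lowest control lay just above the highest RAC3 sample. IGF2R fell by 7.73% (log2 fold change -0.12, standard error 0.0416, edgeR adjusted p = 0.0426). Only leaving out negative control replicate 3, of the 6 samples, kept this call, and the adjusted p was 0.142 without negative control replicate 1, 0.0824 without replicate 2, and 0.0873, 0.11 and 0.0637 without RAC3 overexpression replicate 1, 2 or 3 (edgeR). The log2 ratio of IGF2R to IGF2 counts was -1.63, -1.59 and -1.57 in negative controls 1, 2 and 3 and -1.47, -1.33 and -1.27 in RAC3 samples 1, 2 and 3. All 3 RAC3 samples lay above all 3 controls, a 1.18-fold higher ratio (p = 0.1 by exact two-sided permutation, the lowest this design can give, adjusted p = 0.333 over 5 ratios). The difference of 0.24 on the log2 scale was 0.11 with the FPKM values of the authors. After removal of the GC trends, log2 fold changes were -0.18 for IGF2 and -0.10 for IGF2R.

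Promoter windows of RefSeq on GRCh38.p14, from 250 bases before to 50 after the gene start, matched 8 of the 10 members by symbol, with 10 windows. IGF2 and IGFBP1 had no window, so their promoters were not searched. They were searched on both strands for 4 motifs: the insulin response core CAAAACA, the FOXO core GTAAACA, the hypoxia response core ACGTG and the TATA box letters TATAAA. Of all 35116 windows searched, 4.92% held the first, 3.42% the second, 21.4% the third and 11.5% the fourth. Among the members' windows, 1 held CAAAACA (IRS2), 0 held GTAAACA, 4 held ACGTG (IGF2R, IGF1R, IRS1 and IGFBP2) and 1 held TATAAA (IGFBP4). IGF2R is shown because it carried ACGTG 3 times on each strand, each pair forming the palindrome CACGTG, which begins at positions -132, -74 and -28 from the start. Its window before the start (chr6:159968832-159969081, plus strand, 79.2% G and C) is printed 5′ to 3′, with these letters in capitals. A match is a description of the letters, not a site.
IGF2R: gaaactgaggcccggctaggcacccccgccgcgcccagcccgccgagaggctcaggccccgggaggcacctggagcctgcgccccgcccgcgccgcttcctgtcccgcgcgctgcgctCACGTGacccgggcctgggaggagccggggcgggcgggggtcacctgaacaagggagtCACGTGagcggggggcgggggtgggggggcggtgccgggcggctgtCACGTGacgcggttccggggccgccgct

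IRS1 (ENSG00000169047, chromosome 2 from 226731317 to 226799759), the docking protein that carries much of the receptors' growth signal, was the 1 member called higher. It had 71.4, 73.7 and 78.0 CPM in the negative controls and 87.8, 83.5 and 84.5 CPM in the RAC3 samples, and the groups did not overlap. IRS1 rose by 14.6%, or 0.20 on the log2 scale (standard error 0.056, edgeR adjusted p = 0.0128). Without negative control replicate 1 or 2 the adjusted p was 0.0502 and 0.0589 in the same edgeR test. IRS2 (ENSG00000185950, chromosome 13 from 109752698 to 109786568), its paralog with a larger part in hepatic insulin action, had 112.1, 107.5 and 108.8 CPM in the negative controls and 113.6, 110.2 and 119.5 CPM with RAC3. RAC3 sample 2 fell within the range of the controls. The log2 fold change of IRS2 was 0.06 (95% interval -0.04 to 0.17, edgeR adjusted p = 0.385). With each library's GC trend removed it was 0.21, with an adjusted p of 0.0028 in the same edgeR test, so that IRS2 was then called higher beside IRS1. The log2 ratio of IRS2 to IRS1 counts ranged from 0.48 to 0.65 in the negative controls and from 0.37 to 0.50 with RAC3. These ranges overlap, and the difference of -0.13 gave p = 0.2 in the exact permutation test, two-sided (adjusted p = 0.333).

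The promoters of the 2 paralogous substrates are shown side by side as a description of their letters. Whether IRS1 and IRS2 differed in response is not settled by the ratio above, since 0.10 is the smallest p that its exact permutation test can give. A link of either change to these letters was not tested. The window before the IRS2 start (chr13:109786584-109786833, minus strand, 76.4% G and C) holds the insulin response core on the opposite strand, so that it reads TGTTTTG here, in capitals, at position -40 from the start. In that of IRS1 (chr2:226799821-226800070, minus strand, 80.8% G and C) none of the 4 motifs occurs, and its ACGTG letters lie 35 and 36 bases after the start, outside the stretch printed.
IRS1: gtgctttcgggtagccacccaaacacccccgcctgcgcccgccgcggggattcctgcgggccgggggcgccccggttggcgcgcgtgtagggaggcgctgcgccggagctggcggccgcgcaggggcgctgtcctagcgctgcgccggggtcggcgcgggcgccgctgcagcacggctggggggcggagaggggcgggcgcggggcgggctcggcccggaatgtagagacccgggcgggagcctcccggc
IRS2: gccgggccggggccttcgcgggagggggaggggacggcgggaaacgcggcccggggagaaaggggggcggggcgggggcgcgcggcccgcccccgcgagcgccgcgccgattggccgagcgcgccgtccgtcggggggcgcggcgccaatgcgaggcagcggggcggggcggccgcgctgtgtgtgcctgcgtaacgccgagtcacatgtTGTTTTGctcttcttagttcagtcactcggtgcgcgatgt

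IGFBP3 (ENSG00000146674, chromosome 7 from 45912245 to 45921874), the main carrier of IGFs in plasma, had 1051, 1074 and 1051 CPM in the negative controls and 1001, 961 and 969 CPM in the RAC3 samples. The groups did not overlap, and IGFBP3 fell by 7.71% (log2 fold change -0.12, standard error 0.0358, edgeR adjusted p = 0.0205). The adjusted p was 0.092 without negative control replicate 2, 0.0594 without RAC3 overexpression replicate 2 and 0.0877 without RAC3 overexpression replicate 3 (edgeR). IGFBP1 (ENSG00000146678, chromosome 7 from 45888357 to 45893668) lies 18577 bases from IGFBP3. It is a binding protein of hepatocytes whose transcription insulin lowers through FOXO1 and low oxygen raises. IGFBP1 rested on few counts, 30, 47 and 56 in negative controls 1, 2 and 3 and 31, 22 and 28 in RAC3 samples 1, 2 and 3, or 2.15, 3.13 and 3.12 CPM against 1.74, 1.34 and 1.99 CPM. Negative control 1 lay only just above RAC3 sample 3. The log2 fold change of IGFBP1 was -0.74 (95% interval -1.33 to -0.15), with an unadjusted p of 0.016 and an adjusted p of 0.0545 in edgeR's test. It no longer passed the study's thresholds without negative control replicate 2 or 3 or without RAC3 overexpression replicate 2, while without negative control replicate 1 its adjusted p was 0.0375, and among genes with at least 10 counts in every sample 0.0326 (edgeR). The log2 ratio of IGFBP3 to IGFBP1 counts was 8.57 ± 0.297 in the negative controls and 9.17 ± 0.278 with RAC3 (SD, n = 3 each), with overlapping ranges (exact permutation test, two-sided, p = 0.2, adjusted p = 0.333).

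IGFBP2 (ENSG00000115457, chromosome 2 from 216632828 to 216664436), a binding protein often raised in tumours, had 8.10, 5.59 and 7.25 CPM in the negative controls and 7.48, 8.26 and 7.94 CPM with RAC3. Its controls spread more widely than its RAC3 samples and enclosed 2 of them. The log2 fold change was 0.18 (95% interval -0.15 to 0.51, edgeR adjusted p = 0.432). IGFBP4 (ENSG00000141753, chromosome 17 from 40443461 to 40457731), which holds IGF2 until the protease PAPPA cleaves it, had 3.73, 5.39 and 5.63 CPM in the negative controls and 4.22, 4.31 and 4.68 CPM with RAC3. All 3 RAC3 samples fell inside the range of the controls. Its log2 fold change was -0.17 (95% interval -0.58 to 0.24, edgeR adjusted p = 0.557). Differences inside these wide intervals were not detectable at between 52 and 136 counts per sample. The ratio of IGFBP2 to IGFBP4 also overlapped between the groups (exact permutation test, two-sided, p = 0.4, adjusted p = 0.4).

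The table holds a further readout of these genes, since a count divided by its FPKM and by the total count of the library, suitably scaled, gives the gene length behind the FPKM. For IRS1 this implied length was 9.77 kb in all 6 samples and for IRS2 8.16 kb. It varied between samples for IGF1R, IGF2, IGF2R, INSR and IGFBP2. The implied length of IGF1R was 10.9, 9.56 and 9.40 kb in negative controls 1, 2 and 3 and 8.11, 8.98 and 8.16 kb in RAC3 samples 1, 2 and 3. That of IGF2 was 3.68, 3.62 and 3.58 kb against 3.42, 3.44 and 3.47 kb. For both genes every RAC3 sample lay below every control, as the groups did not overlap, in either direction, for 11.0% of the 12898 genes with a value in each sample. IGF2R ranged from 9.88 to 11.1 kb in the controls and from 10.3 to 11.5 kb with RAC3, INSR from 8.67 to 9.26 against 8.38 to 9.22 kb, and IGFBP2 from 0.920 to 1.12 against 0.944 to 1.02 kb, with overlap. The median over all these genes stayed between 2.67 and 2.69 kb in every sample. IGF1R, which fell in counts, ranged from 15.7 to 18.1 FPKM in the controls and from 17.8 to 20.4 FPKM with RAC3, which overlap. How the authors' lengths came about is not given in the sources used here.

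**Figure D4:**
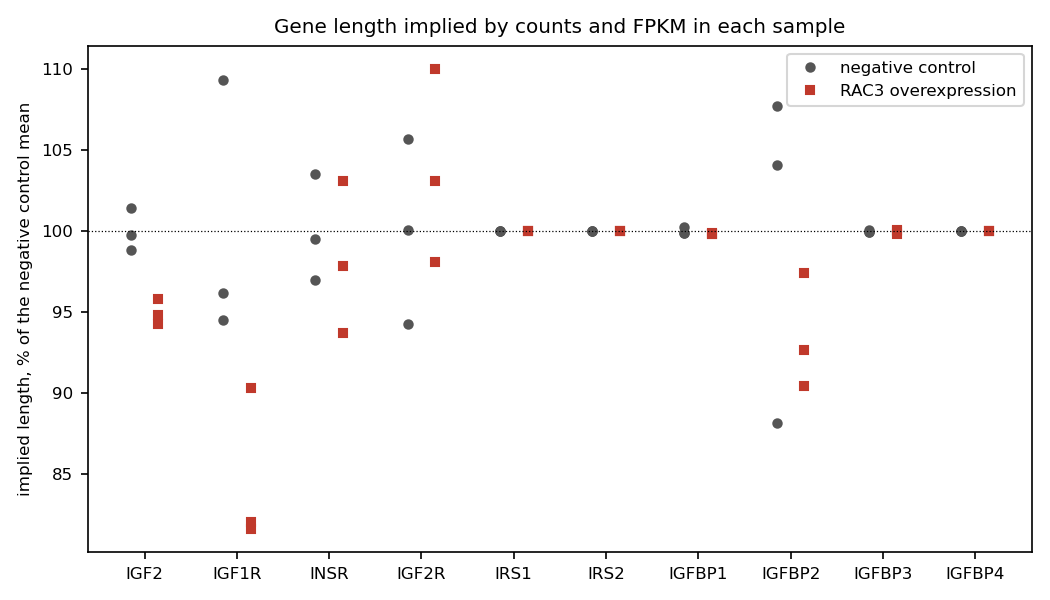
Gene length implied by the counts and FPKM of each sample, in percent of the negative control mean of each gene, for the 3 negative control (circles) and 3 RAC3 samples (squares). IRS1, IRS2, IGFBP1, IGFBP3 and IGFBP4 lie at about 100% in all samples, while IGF1R and IGF2 lie lower in every RAC3 sample than in every control.

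Around the members, gene lists of the axis written from general knowledge were counted in the same edgeR fit. Of 10 other ligands, receptors and binding proteins, 8 had too few counts to be tested. IGF1 had 1 to 5 counts per sample and INS had 0 in all, so that IGF2 was the 1 IGF or insulin gene that could be tested. IGFBP5 and IGFBP7 were tested and did not pass, with log2 fold changes of 0.02 and -0.28. A list of IGF2 locus genes and regulators of IGF2 mRNA had 5 tested members, none of which lies at the locus, and 1 rose and 2 fell. LIN28B, an oncofetal RNA-binding protein, rose (log2 fold change 0.14), and IGF2BP2, which binds IGF2 mRNA, and HMGA2, a chromatin protein that activates IGF2BP2, fell (-0.24 and -0.28). Of 7 proteases, protease inhibitors and convertases tested, 0 rose and 3 fell. These were STC2, a stanniocalcin that inhibits PAPPA and is also hypoxia-induced (log2 fold change -0.63), FURIN (-0.21) and PCSK6 (-0.25), and FURIN cleaves the precursors of IGF1R and INSR. PAPPA itself did not pass, at -0.04. Of 5 genes of mannose 6-phosphate sorting, GNPTAB rose (0.17) and SORT1 fell (-0.31).

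Downstream of the receptors, genes moved in both directions, and the counts are to be read against 13.3% higher and 15.3% lower over all genes tested, near which several of the lists lie. Of 14 receptor adaptors and phosphatases, 2 rose, SOS1 (log2 fold change 0.56) and PTPN1 (0.23), the latter a phosphatase that acts on INSR. A further 4 fell, among them GRB10 (-0.20), an adaptor that dampens both receptors, CBL (-0.22) and SH2B2 (-0.69). Of 15 genes of phosphoinositide 3-kinase and AKT, 6 rose and 5 fell. PIK3R3, a regulatory subunit of the kinase, rose (0.60), as did PDPK1 (0.22), a kinase that activates AKT, while PIK3R2 (-0.28), INPPL1 (-0.24) and AKT1 (-0.18) fell. Of 16 genes of the mTOR complexes and their targets, 2 rose, RICTOR (0.29) and EIF4EBP2 (0.15), and 6 fell, among them EIF4EBP1 (-0.50), MLST8 (-0.34) and DEPTOR (-0.84). Of 6 FOXO factors and GSK3 genes, GSK3B rose (0.32) and FOXO3 fell (-0.18). Of a list of hepatic genes taken as lowered by insulin through FOXO1, 10 were tested. Of these, 3 rose, TXNIP (0.43), CITED2 (0.16) and SESN3 (0.25), and 0 were called lower. The 7 not called ranged from -0.67 (KLF15) to 0.47 (PDK4), and the list's median log2 fold change was 0.03. IGFBP1, which belongs to the same regulation, was at -0.74 and was not called either (edgeR adjusted p = 0.0545). PCK1 and G6PC1, its best known liver genes, had at most 3 and 6 counts in any sample and could not be tested. Of all these lists the hypoxia-induced genes had the lowest median, a log2 fold change of -0.56, with BNIP3 (-0.85), CA9 (-2.55) and SLC2A1 (-1.31).

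**Figure D5:**
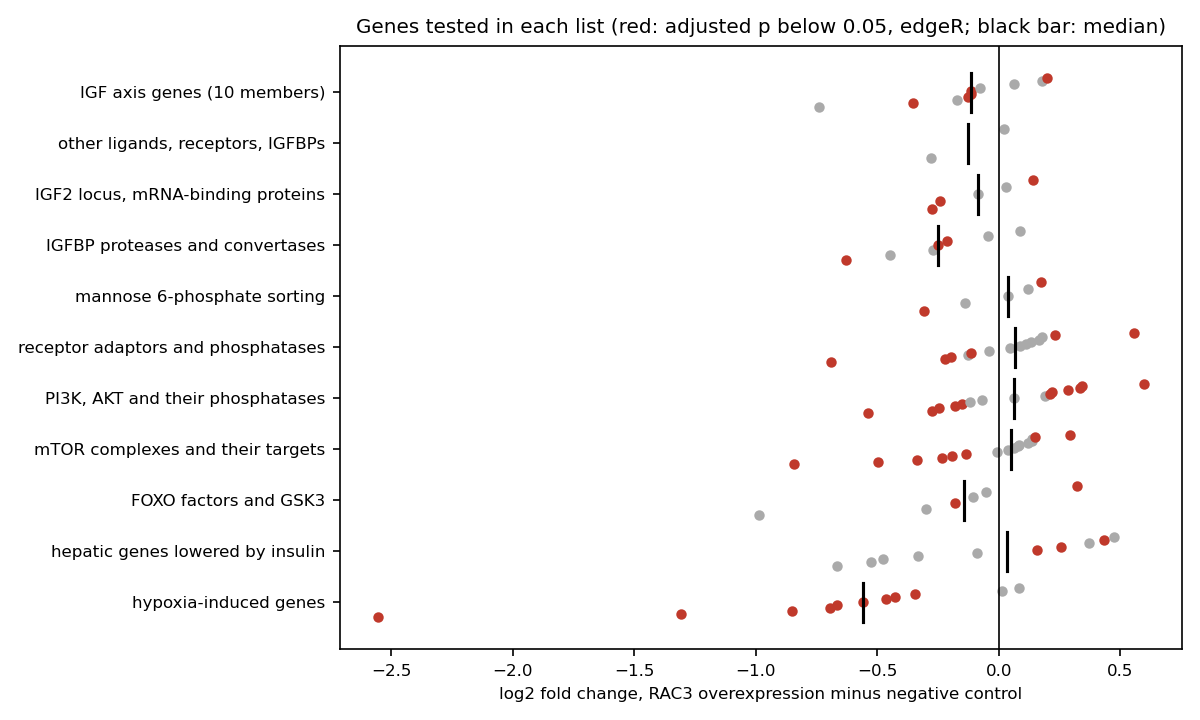
Log2 fold change between RAC3-overexpressing and negative control samples for each gene tested, by list, with genes of an adjusted p below 0.05 in red and the median of the list as a black bar. The 10 members have a median of -0.12 and the hypoxia-induced genes one of -0.56.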

How the data were processed

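Polyadenylated RNA of 3 RAC3-overexpressing and 3 negative control Huh-7 samples was sequenced on an Illumina instrument. The deposited table gives the raw counts per gene and sample, without normalization. It also gives FPKM values per sample and their group means, made by the authors. The submitters' processing notes name Bowtie2 2.2.8, HISAT2, StringTie 1.3.1 and DESeq2; the genome build and annotation are not given in the sources used here. Samples were grouped by title.

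The count analysis used edgeR 4.0.16 under R 4.3.3, with filterByExpr, TMM scaling, the quasi-likelihood F test (two-sided) without covariates, and Benjamini-Hochberg adjustment over the 12941 genes tested. The common biological coefficient of variation was 0.0533. The edgeR, DESeq2 and limma-voom fits were run on simulated counts, and the other steps were not. A pseudocount of 0.5 was added to counts for the ratios, which were tested by exact permutation (scipy 1.17.1) with adjustment over 5 ratios. Implied lengths are counts divided by FPKM and by the scaled library total. Gene positions and transcripts come from GENCODE release 29 (20113 identifiers matched) and promoters from RefSeq.

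The alternatives were DESeq2 size factors, upper quartile scaling, library size alone, DESeq2 1.42.0, limma-voom (limma 3.58.1), 2 other filters, each sample left out, a replicate block, lowess removal of each library's GC trend (span 0.3), and limma-trend on log2(FPKM + 0.1). Members and lists were chosen with earlier results of these data known. All members are named, and from each other list up to 3 higher and 3 lower genes, those of smallest p among adjusted values below 0.05. IGF1, INS, IGFBP5, IGFBP7, PAPPA, PCK1 and G6PC1 were named in addition, after their values were seen. A gene that this rule names is not reported here. Replicates of a group differed by more than sampling noise (chi-square per degree of freedom 2.49 to 5.23).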

Additional observations from a re-analysis of the deposited data

How the results depend on the processing

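Against 4 members lower and 1 higher, library size alone gave 1 lower, the replicate block 1 lower, and limma-trend on the authors' FPKM 1 lower and 0 higher, while removal of the GC trend gave 2 higher, and a minimum of 10 counts in every sample gave 5 lower, IGFBP1 included. Leaving out 1 sample gave 1 to 3 lower and 0 to 1 higher, and 0 to 1 members past the study's thresholds. Without negative control replicate 2, RAC3 overexpression replicate 2 or RAC3 overexpression replicate 3, IGF2 was the 1 member called lower. Without negative control replicate 1 or 2 IRS1 was not called (adjusted p = 0.0502 and 0.0589, edgeR), though its log2 fold change stayed between 0.16 and 0.25 over all settings. These fits hold fewer samples. The replicate block changed the calls of IGF1R, IGF2R and IGFBP3 and no other. Deviations of same-numbered samples had correlations of -0.136, -0.066 and -0.018 over 10169 genes, so the replicate numbers were not taken as pairs. Library size alone moved the share of higher genes among all called genes from 46.5% to 65.4%. With the FPKM values IGF1R turned to 0.17 (adjusted p = 0.194) and INSR to 0.00 (0.0034 before rounding), and the log2 differences of the INSR to IGF1R and IGF2R to IGF2 ratios were -0.16 and 0.11 against 0.05 and 0.24. With the GC trend removed IGFBP4 turned to 0.01 (0.012 before rounding). The cause was not tested.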
